A study of Mus musculus with 15 samples.

Results

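Aminoacyl tRNA synthetases are the enzymes that join each amino acid to its transfer RNA, and their genes were followed here through diet-induced steatohepatitis and liver cancer in B6/129 mice. The genes were taken by symbol from the probe annotation of the array, as every symbol of a letter followed by ars, with or without a final 1 or 2, together with Farsa, Farsb, Eprs and Tarsl2. The rule found 36 genes of the 19057 with 1 symbol on the array, read by 79 probes. Of these, 20 encode cytosolic enzymes and 16, whose symbols end in 2, encode mitochondrial enzymes. Tarsl2 was counted as cytosolic, and Gars and Kars, counted as cytosolic by symbol, are known to encode both forms from 1 gene. The rule uses symbols only, and no measured value.

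The mice were males of an isogenic cross between 129S1/SvImJ and C57Bl/6J, put on diet as young adults according to the methods of the study. Total RNA came from 5 tumors of mice on Western diet and sugar water (WD SW), from the liver adjacent to the tumors in the same 5 mice (4N, 4R, 5N, 5R and 6L), and from the livers of 5 mice on chow diet and normal water (CD NW; 1L, 1R, 2L, 2N and 3N). All mice had been on their diet for 52 weeks, and each sample was read on 1 Illumina mouse whole-genome array. Because every WD SW liver came from a mouse that carried a tumor, diet and the presence of a tumor cannot be told apart in the comparison of livers, and tumors and CD NW livers differed in diet and in tissue at once.

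Charging of transfer RNA takes place in the cytosol and again inside the mitochondrion, where a separate and nuclear-encoded set of synthetases serves the few proteins translated from mitochondrial DNA. When an amino acid runs short, uncharged transfer RNA activates the kinase GCN2, and stress in the endoplasmic reticulum activates PERK. Both kinases raise the translation of the transcription factor ATF4, which is known in cultured mammalian cells to induce many cytosolic synthetase genes along with Asns, the asparagine synthetase gene. Several cytosolic synthetases are bound together in a multisynthetase complex around the scaffold proteins encoded by Aimp1, Aimp2 and Eef1e1.

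Signal levels are given, with the standard error (SE) of each log2 fold change, as background-corrected, quantile-normalized log2 intensities, and a probe was taken as above background when its signal had a detection p under 0.01, the share at or above it among probes for olfactory and pheromone receptor genes. Raw array medians were between 88.4 and 109.0, close to the medians of those receptor probes (82.6 to 98.8), and 12278 to 15814 probes were above background on an array. All 15 hepatocyte markers were above background on each array, apart from 1 tumor with 14. The comparisons share their arrays: the WD SW livers enter 2 of the 3 comparisons, as do the tumors and the CD NW livers. Values of single arrays run in the order 4N, 4R, 5N, 5R and 6L for tumors and WD SW livers and 1L, 1R, 2L, 2N and 3N for CD NW livers. In whole tissue, fewer cells of a type and less RNA per cell cannot be told apart. Of the cytosolic genes, 17 of 20 were above background on all 15 arrays, and of the mitochondrial genes 9 of 16.

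The DNA element through which ATF4 acts, the C/EBP-ATF response element, was searched for as the letters TGATGNAA on both strands, from 250 bases before to 50 bases after each annotated start (RefSeq, GRCm38.p6). Of 32851 such windows over all genes, 3.97% held it. Promoter entries were found for 27 of the 36 genes. The other 9 were Pars2, Rars, Hars2, Wars, Hars, Lars, Cars, Nars and Vars. The letters were found in 5 of 13 cytosolic synthetase genes (Aars, Gars, Iars, Tars and Yars) and in 0 of 14 mitochondrial ones. The match began 112 bases before the start in Aars, 30 bases before it in Gars and 15 bases before it in Tars, in each of them on the strand opposite to the gene. A further match lay after the start in Aars, and the matches of Iars and Yars lay after the start as well. The 250 bases before the start are shown for Aars and Gars, which were higher in tumors, for Tars and Mars1, which were lower in WD SW livers, and for Asns, with the element in capitals on the gene's own strand.
Aars, chr8:111033592-111033841, plus strand: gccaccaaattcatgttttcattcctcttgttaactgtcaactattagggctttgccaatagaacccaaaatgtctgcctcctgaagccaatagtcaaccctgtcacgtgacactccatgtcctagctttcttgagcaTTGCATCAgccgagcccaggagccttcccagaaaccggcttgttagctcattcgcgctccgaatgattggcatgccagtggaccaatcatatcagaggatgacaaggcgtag
Gars, chr6:55037751-55038000, plus strand: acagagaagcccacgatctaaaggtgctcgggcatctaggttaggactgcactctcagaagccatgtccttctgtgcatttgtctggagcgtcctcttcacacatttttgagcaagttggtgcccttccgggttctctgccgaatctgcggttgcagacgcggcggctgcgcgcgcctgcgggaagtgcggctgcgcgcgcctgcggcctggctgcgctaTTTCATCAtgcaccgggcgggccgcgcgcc
Tars, chr15:11399659-11399908, minus strand: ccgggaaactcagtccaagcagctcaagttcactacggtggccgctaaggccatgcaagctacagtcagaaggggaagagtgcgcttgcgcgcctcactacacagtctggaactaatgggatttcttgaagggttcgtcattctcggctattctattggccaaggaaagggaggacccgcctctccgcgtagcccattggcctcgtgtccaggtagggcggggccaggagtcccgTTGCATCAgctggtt
Mars1, chr10:127311787-127312036, minus strand: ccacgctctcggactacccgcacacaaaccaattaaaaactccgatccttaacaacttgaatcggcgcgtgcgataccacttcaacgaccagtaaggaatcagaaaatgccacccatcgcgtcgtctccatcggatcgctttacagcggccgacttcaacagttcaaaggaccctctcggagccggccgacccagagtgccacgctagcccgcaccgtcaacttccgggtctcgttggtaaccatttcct
Asns, chr6:7693210-7693459, minus strand: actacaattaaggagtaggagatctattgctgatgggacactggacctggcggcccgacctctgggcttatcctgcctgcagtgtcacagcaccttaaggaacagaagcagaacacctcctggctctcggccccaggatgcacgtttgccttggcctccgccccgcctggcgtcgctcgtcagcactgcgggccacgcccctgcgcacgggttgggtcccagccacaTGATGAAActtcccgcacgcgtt
The element appears in these 250 bases as TTGCATCA in Aars and Tars, as TTTCATCA in Gars and as TGATGAAA in Asns, and its letters were not found in the Mars1 window. A match is a run of letters and was not tested as a site of binding.

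In WD SW livers, 5 of the 31 synthetase genes that could be tested were lower than in CD NW livers and 0 were higher (limma, adjusted p under 0.05). The lower genes were 2 cytosolic ones, Mars1 for methionine and Tars for threonine, and 3 mitochondrial ones, Nars2 for asparagine, Sars2 for serine and Vars2 for valine. Over all 8429 genes tested, 9.78% were called, with 3.7% lower and 6.07% higher, against 16.1% and 0% of the synthetase genes. At an unadjusted p under 0.05, 7 of the 31 synthetase genes and 26.2% of all genes differed. The median log2 fold change was -0.07 over 18 cytosolic genes and -0.21 over 13 mitochondrial genes, beside -0.05 over all genes tested. With each array scaled by its median in place of quantile normalization, the median over all genes was 0.05, and the calls over all genes were 552 higher and 126 lower, in place of 512 higher and 312 lower. The synthetase medians were then 0.03 for the cytosolic genes, on the other side of 0, and -0.10 for the mitochondrial genes.

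**Figure D1:**
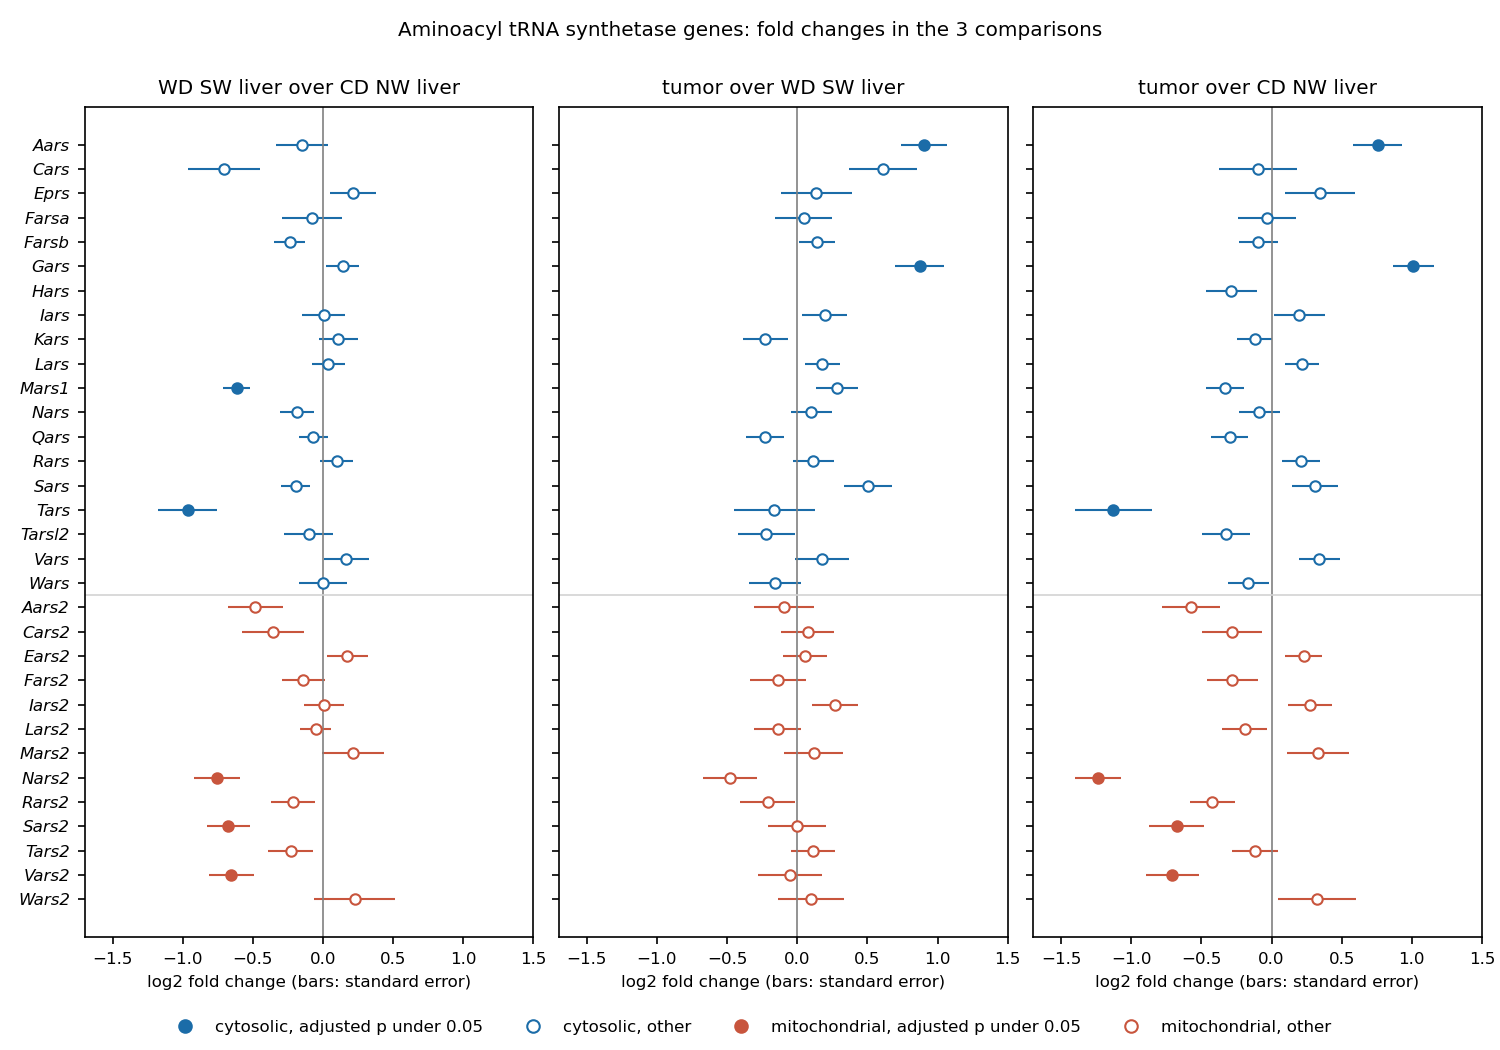
Log2 fold changes of the synthetase genes tested in the 3 comparisons, with standard errors (x axis; n = 5 arrays per group), cytosolic genes above the grey line and mitochondrial genes below it. Filled points passed an adjusted p of 0.05: 5 genes to the left of 0 in WD SW livers over CD NW livers, Aars and Gars to the right in tumors over WD SW livers, and 2 genes to the right and 4 to the left in tumors over CD NW livers.

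Mars1, the cytosolic methionyl-tRNA synthetase that also charges the initiator transfer RNA, had log2 levels of 9.21, 9.58, 9.77, 9.92 and 9.69 in tumors, 9.44, 9.20, 9.33, 9.32 and 9.46 in WD SW livers and 10.03, 10.05, 9.92, 9.90 and 9.93 in CD NW livers. The WD SW livers lay below all CD NW livers, and the tumors ran across both, with that of mouse 4N at the level of the WD SW livers and that of mouse 5R within the range of the CD NW livers. The log2 fold change in WD SW livers over CD NW livers was -0.62 (SE 0.09, limma adjusted p = 0.0031), a level 0.652 times that of CD NW livers. The second probe of Mars1 gave -0.52 (adjusted p = 0.0742 with each probe tested on its own). Mars2, its mitochondrial counterpart, had levels of 6.16, 6.24, 5.60, 5.63 and 5.70 in tumors, 6.20, 5.85, 5.84, 5.41 and 5.46 in WD SW livers and 4.93, 5.57, 5.47, 5.85 and 5.86 in CD NW livers, and its log2 fold change was 0.21 (SE 0.22, limma adjusted p = 0.578). The Mars2 levels of the groups overlapped and were near background.

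Tars, the cytosolic threonyl-tRNA synthetase, had log2 levels of 7.52, 8.04, 6.51, 6.77 and 7.24 in tumors, 7.78, 7.15, 7.11, 7.05 and 7.80 in WD SW livers and 8.78, 8.59, 8.24, 7.99 and 8.12 in CD NW livers. All WD SW livers lay below all CD NW livers, and the tumors spread more widely, with the tumor of mouse 4R inside the range of CD NW livers. It changed by a log2 fold change of -0.96 (SE 0.21, limma adjusted p = 0.0148) in WD SW livers, a level 0.513 times that of CD NW livers. A dimmer second probe of Tars gave -0.42 (adjusted p = 0.271 on its own). Tars2, the mitochondrial threonine enzyme, had levels of 7.08, 6.81, 7.26, 7.23 and 7.01 in tumors, 6.69, 6.84, 7.07, 7.18 and 7.06 in WD SW livers and 7.05, 7.63, 7.003, 7.06 and 7.24 in CD NW livers, with overlapping groups and a log2 fold change of -0.23 (SE 0.16, limma adjusted p = 0.386). Tarsl2, a second cytosolic threonine enzyme, had one of -0.10 (SE 0.18, limma adjusted p = 0.748).

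Among mitochondrial genes, Nars2, which charges asparagine, had log2 levels of 4.80, 5.07, 5.24, 5.49 and 5.19 in tumors, 6.001, 5.45, 5.65, 5.83 and 5.24 in WD SW livers and 6.44, 6.39, 6.21, 6.52 and 6.40 in CD NW livers. Each WD SW liver lay below each CD NW liver, with a log2 fold change of -0.76 (SE 0.16, limma adjusted p = 0.0151). These are dim values: Nars2 was above background in 3 of 5 tumors, 5 of 5 WD SW livers and 5 of 5 CD NW livers. The cytosolic Nars had levels of 8.52, 9.11, 8.94, 9.02 and 8.96 in tumors, 8.86, 8.57, 8.78, 8.89 and 8.96 in WD SW livers and 9.12, 9.19, 8.99, 8.74 and 8.93 in CD NW livers, which overlapped between the groups, and its log2 fold change was -0.18 (SE 0.12, limma adjusted p = 0.360).

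Sars2, the mitochondrial seryl-tRNA synthetase, had log2 levels of 4.70, 5.05, 5.64, 5.49 and 5.16 in tumors, 4.92, 5.18, 5.10, 5.45 and 5.41 in WD SW livers and 5.81, 6.05, 5.96, 5.91 and 5.69 in CD NW livers. The CD NW livers lay above all other samples, and the log2 fold change in WD SW livers was -0.67 (SE 0.15, limma adjusted p = 0.019). Sars2 was above background in 3 of 5 tumors, 3 of 5 WD SW livers and 5 of 5 CD NW livers, so that the CD NW livers alone could have carried it past the filter. It did not pass when the CD NW liver 1R or 2L was left out (adjusted p up to 0.0525). The cytosolic Sars had levels of 8.71, 8.33, 7.96, 8.47 and 7.95 in tumors, 7.79, 7.66, 7.69, 7.91 and 7.84 in WD SW livers and 7.91, 8.10, 7.92, 7.95 and 7.996 in CD NW livers, and its log2 fold change in WD SW livers was -0.19 (SE 0.10, limma adjusted p = 0.265).

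Vars2, the mitochondrial valyl-tRNA synthetase, was well above background on all 15 arrays. Its log2 levels were 8.49, 7.83, 8.08, 8.75 and 7.80 in tumors, 8.38, 7.78, 8.24, 8.71 and 8.11 in WD SW livers and 8.94, 8.72, 8.84, 8.998 and 8.99 in CD NW livers. The WD SW livers lay below all CD NW livers by a narrow margin, with 8.71 in the highest WD SW liver (mouse 5R) and 8.72 in the lowest CD NW liver (mouse 1R). Its log2 fold change came to -0.65 (SE 0.16, limma adjusted p = 0.0266), and the call ended in 7 of the 10 fits that left out 1 array, with adjusted p up to 0.0645, and in 1 fit of all 15 arrays (adjusted p = 0.0519). Vars, its cytosolic counterpart, had levels of 8.67, 8.95, 8.45, 8.92 and 8.36 in tumors, 8.30, 8.27, 8.33, 8.48 and 9.09 in WD SW livers and 8.27, 8.45, 8.39, 8.34 and 8.18 in CD NW livers, with overlapping groups and a log2 fold change of 0.17 (SE 0.16, limma adjusted p = 0.550).

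In WD SW livers, 5 of the 31 synthetase genes lay below the CD NW livers with no overlap, as did 4.22% of all genes tested. They were the 5 called genes, and calls and overlap rest on the same arrays, so that the separation is no further support. Mars1, Tars and Nars2 passed whichever single array was left out, and also with median scaling, while Sars2 (adjusted p = 0.0629) and Vars2 (adjusted p = 0.0690) did not pass with median scaling. Without the filter on dim probes, Nars2 (adjusted p = 0.0543) and Sars2 (adjusted p = 0.0631) did not pass. The 16 cytosolic genes with no call ran between -0.71 for Cars, the cysteine enzyme (SE 0.26, adjusted p = 0.109), and 0.21 for Eprs, which charges both glutamate and proline. Among the 10 mitochondrial genes with no call, Aars2, the mitochondrial alanine enzyme, was lowest at -0.48 (adjusted p = 0.146) and Wars2, the tryptophan enzyme, highest at 0.23. The standard errors of these fold changes were 0.10 to 0.29, and with 5 arrays per group shifts as large as those of Cars and Aars2 did not pass.

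**Figure D2:**
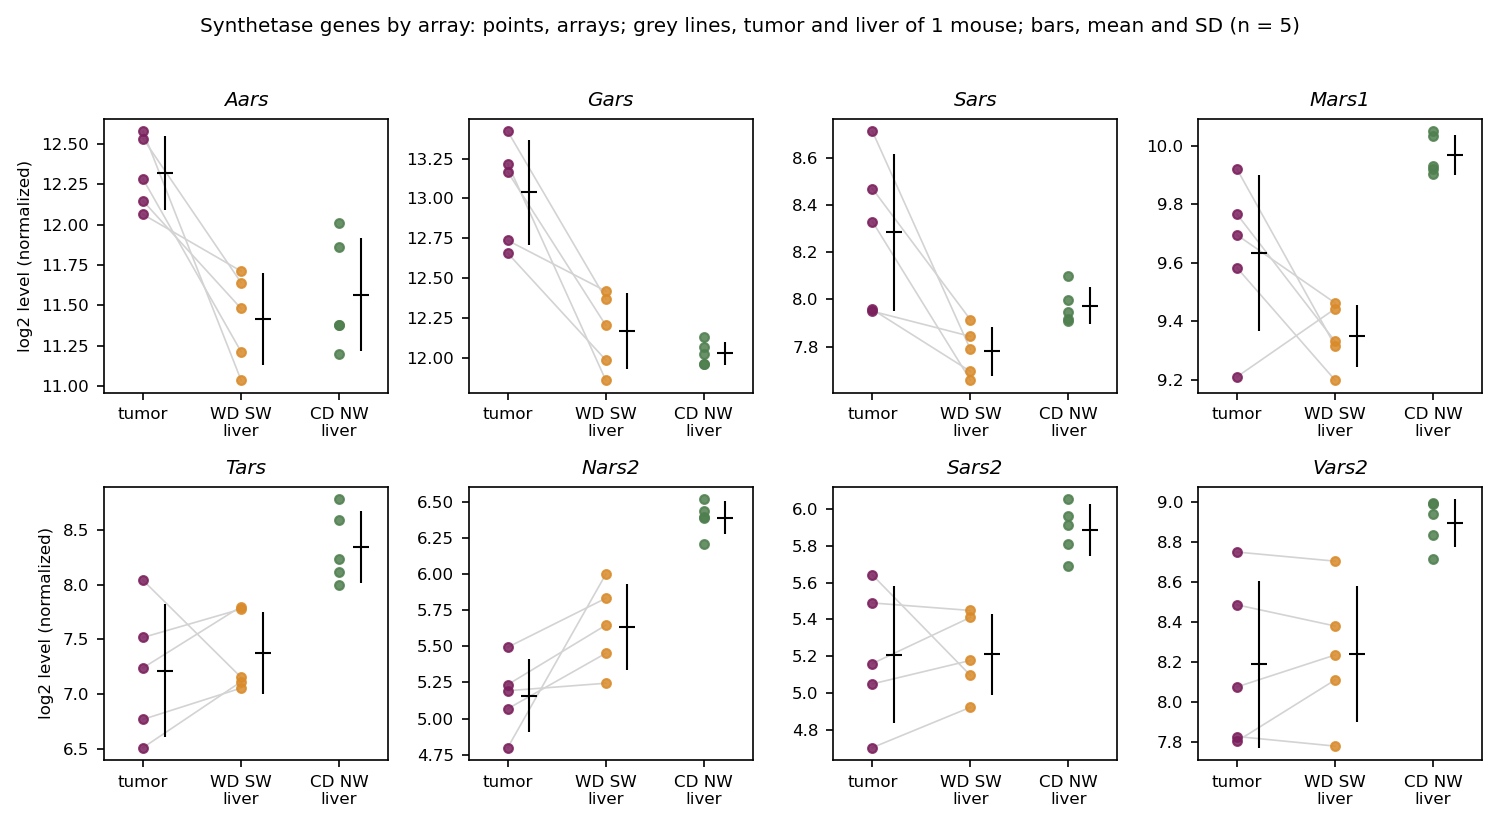
Log2 levels of 8 synthetase genes on each array (y axis) in tumors, WD SW livers and CD NW livers (x axis), with the mean and SD of each group (n = 5) and grey lines that join tumor and liver of 1 mouse. Aars, Gars and Sars lie higher in the tumor than in the liver of all 5 mice, and the CD NW livers lie above all WD SW livers in Mars1, Tars, Nars2, Sars2 and Vars2.

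In tumors, 2 of 31 synthetase genes tested were higher than in WD SW livers and 0 were lower. Both were cytosolic: Aars, the alanine enzyme, and Gars, the glycine enzyme whose gene also encodes the mitochondrial form. Over all 8674 genes tested, 4.01% were called, with 1.96% higher and 2.05% lower. These calls come from a fit that did not pair tumor and liver by mouse. At an unadjusted p under 0.05 (limma), 4 of 18 cytosolic and 1 of 13 mitochondrial genes differed, beside 19.3% of all genes. The median log2 fold change was 0.14 over the cytosolic genes and -0.0022 over the mitochondrial genes, beside 0.0024 over all genes, and with median scaling these were 0.21, 0.076 and 0.082. Of the 31 genes, 3 lay above the WD SW livers with no overlap, as did 2.76% of all genes.

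Aars had log2 levels of 12.15, 12.28, 12.58, 12.06 and 12.53 in tumors, 11.48, 11.21, 11.04, 11.71 and 11.64 in WD SW livers and 11.86, 12.01, 11.38, 11.38 and 11.20 in CD NW livers. The lowest tumor lay above the highest WD SW liver and the highest CD NW liver, while the livers of both diets overlapped. The log2 fold change was 0.90 (SE 0.16, limma adjusted p = 0.013) over WD SW livers, a 1.87-fold higher level. Within mice, the tumor exceeded the liver by 0.67 in 4N, 1.07 in 4R, 1.54 in 5N, 0.35 in 5R and 0.89 in 6L. Aars2, the mitochondrial counterpart, had levels of 5.45, 5.35, 5.67, 6.23 and 5.75 in tumors, 6.16, 5.38, 5.54, 5.91 and 5.94 in WD SW livers and 6.04, 6.71, 6.36, 6.24 and 5.97 in CD NW livers, and its log2 fold change in tumors over WD SW livers was -0.09 (SE 0.21, limma adjusted p = 0.868).

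Gars had log2 levels of 12.66, 13.22, 13.42, 12.74 and 13.17 in tumors, 11.99, 11.86, 12.37, 12.42 and 12.20 in WD SW livers and 12.02, 12.13, 12.07, 11.96 and 11.96 in CD NW livers. Tumors and WD SW livers did not overlap, and the 5 CD NW livers lay within a narrow band inside the range of the WD SW livers. Gars gave a log2 fold change of 0.87 (SE 0.18, limma adjusted p = 0.0199) over WD SW livers, 1.83-fold higher, and the tumor was above the liver in 5 of 5 mice, by 0.32 to 1.36. Gars did not pass when the tumor 5N, or either of the WD SW livers 4N and 4R, was left out (adjusted p up to 0.0615). The second probe of Aars was above background in 2 tumors and 0 livers and that of Gars on 0 arrays, and neither was tested.

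Sars, the cytosolic serine enzyme, was also higher in the tumor of each mouse and did not overlap with WD SW livers, with 7.95 in the lowest tumor and 7.91 in the highest WD SW liver. Its log2 fold change of 0.50 (SE 0.17, limma adjusted p = 0.130) did not pass over all genes, and it passed in 1 fit of all 15 arrays (adjusted p = 0.0433). Cars had levels of 6.29, 7.47, 6.65, 7.03 and 7.16 in tumors, 6.06, 6.53, 5.83, 6.58 and 6.55 in WD SW livers and 7.32, 7.74, 6.49, 6.54 and 6.99 in CD NW livers, with a tumor above the liver in 5 of 5 mice, by 0.23 to 0.94, and overlapping groups. Its log2 fold change was 0.61 (SE 0.25, limma adjusted p = 0.198), and with the mouse as a block its adjusted p was 0.0487. With that replicate block, 907 genes were called in all in place of 348, and the synthetase genes called were Aars, Cars and Gars. With median scaling, 0 synthetase genes passed in this comparison (adjusted p = 0.0595 for Aars and 0.0807 for Gars), with 4 cytosolic genes at an unadjusted p under 0.05.

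Over CD NW livers, the tumors had 2 higher and 4 lower synthetase genes of 32 tested. Aars was higher by 0.76 (SE 0.17, limma adjusted p = 0.00804) on the log2 scale and Gars by 1.01 (SE 0.15, limma adjusted p = 4.47e-04). Of the 32 genes, these 2 lay above the CD NW livers without overlap, as did 8.97% of all genes. The lower genes were Tars at -1.13 (SE 0.27, limma adjusted p = 0.0108), Nars2 at -1.24 (SE 0.16, limma adjusted p = 2.20e-04), Sars2 at -0.68 (SE 0.19, limma adjusted p = 0.0244) and Vars2 at -0.71 (SE 0.19, limma adjusted p = 0.0172). The dimmer second probe of Tars gave -0.48 (limma adjusted p = 0.188 on its own). Sars2 and Vars2 did not pass with median scaling (adjusted p = 0.174 and 0.0862), and Sars2 did not pass when tumor 4R, or either of the CD NW livers 1R and 2L, was left out (adjusted p up to 0.0604). Sars2 also did not pass without the filter on dim probes (adjusted p = 0.0680), while Nars2 did (adjusted p = 0.00139). With detection asked on all 10 arrays, Nars2 and Sars2 were not tested, since each was above background in 3 of 5 tumors. Of 8352 genes in all, 25.1% were called, 12.3% higher and 12.8% lower, against 6.25% and 12.5% of the synthetase genes. At an unadjusted p under 0.05 the shares were 11 of 32 synthetase genes and 37.2% of all genes. Nars2 and Sars2, 2 of the 32 genes, lay below the CD NW livers without overlap, as did 8.66% of all genes. Tars and Vars2 overlapped between tumors and CD NW livers, through the tumor of mouse 4R for Tars and that of mouse 5R for Vars2. Mars1, lower in WD SW livers, had a log2 fold change of -0.33 (SE 0.14, limma adjusted p = 0.0968) in tumors, and whether the tumors differed from the WD SW livers in this gene was tested directly: 0.28 (SE 0.15, limma adjusted p = 0.329).

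The median log2 fold change in tumors over CD NW livers was -0.09 over 19 cytosolic and -0.28 over 13 mitochondrial genes, beside -0.04 over all genes. With median scaling the median over all genes was 0.15, the calls over all genes were 1137 higher and 460 lower in place of 1030 higher and 1069 lower, and the medians of the synthetase classes were 0.14 and -0.04. The cytosolic median was thus on either side of 0 depending on the scaling, and the mitochondrial median was below the cytosolic one under both. That order was not tested. Array by array, the median deviation of the mitochondrial genes from the CD NW mean was -0.59 to 0.03 in tumors, -0.33 to -0.09 in WD SW livers and -0.08 to 0.10 in CD NW livers, and that of the cytosolic genes was -0.04 to 0.31, -0.20 to -0.00079 and -0.09 to 0.18 in the same groups.

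For 12 amino acids, 1 cytosolic gene was paired with 1 mitochondrial gene, and their log2 ratio was formed within each array and compared between the groups. Phenylalanine, whose cytosolic enzyme is encoded by the subunit genes Farsa and Farsb, was left out of these pairs. Its mitochondrial gene Fars2 had log2 fold changes of -0.14 in WD SW livers over CD NW livers, beside -0.08 for Farsa and -0.24 for Farsb. Fars2 was at -0.14 in tumors over WD SW livers, beside 0.05 and 0.14 for the same subunits, and at -0.28 in tumors over CD NW livers, beside -0.03 and -0.09. Of the 12 pairs, in WD SW livers over CD NW livers the log2 ratio of the cytosolic over the mitochondrial gene was larger for 7 amino acids and smaller for 5, with a median difference of 0.06. It was larger by 0.82 for valine, 0.57 for asparagine and 0.48 for serine, and the difference was -0.83 for methionine, each with no overlap between the groups. In tumors over WD SW livers the ratio was larger for 9 of 12 amino acids, with a median difference of 0.27, led by alanine at 0.997, and no pair separated the groups. Between tumors and CD NW livers it was larger in tumors for 8 of 12, with a median of 0.30. Alanine at 1.33, asparagine at 1.15, valine at 1.05, serine at 0.99 and arginine at 0.63 did not overlap in that comparison, and threonine ran the other way at -1.01 with overlapping groups. Nars2 and Sars2 were above background in 3 of 5 tumors and Aars2 in 4 of 5, which limits these ratios. Sars2 was so in 3 of 5 WD SW livers and Mars2 in 4 of 5 CD NW livers. For methionine the groups were narrowly apart, with 4.005 in the highest WD SW liver (6L) and 4.052 in the lowest CD NW liver (2N). A dimmer second probe of Sars gave -0.17 in tumors over CD NW livers (limma adjusted p = 0.619 on its own), against 0.31 for the probe used. The differences of the ratios are descriptions of the pairs and carry no test. Ratios of other gene pairs were not formed, so that no share over all genes can be set beside them.

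**Figure D3:**
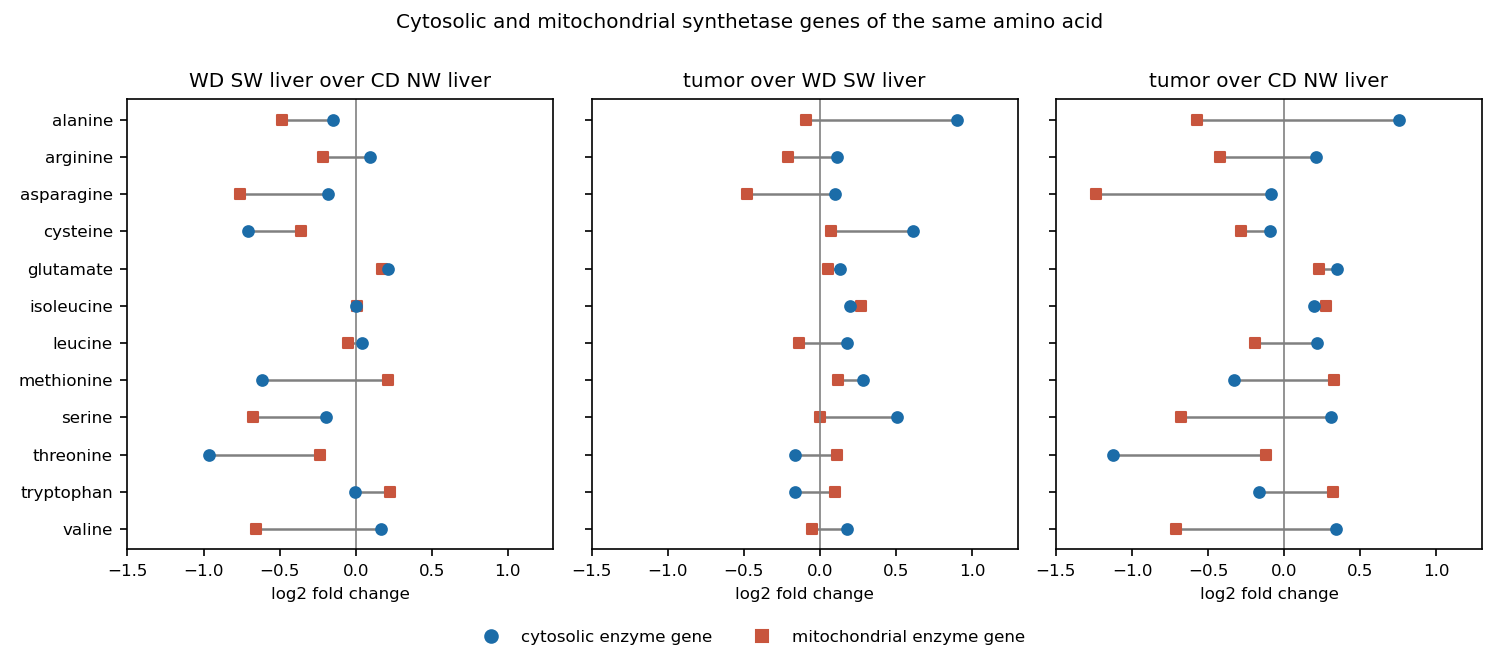
Log2 fold change (x axis) of the cytosolic gene (circle) and the mitochondrial gene (square) for the 12 paired amino acids (y axis; phenylalanine not plotted) in the 3 comparisons. The circle lies right of the square for 7 of these amino acids in WD SW livers over CD NW livers, for 9 in tumors over WD SW livers and for 8 in tumors over CD NW livers.

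The 12 synthetase genes listed as ATF4-regulated had 11 testable members, all cytosolic. In WD SW livers over CD NW livers, 2 of the 11 were lower (Mars1 and Tars) and 0 were higher, with a median log2 fold change of -0.15, beside 3.7% lower and 6.07% higher over all genes. Tumors had 2 higher than WD SW livers (Aars and Gars) and 0 lower, with a median of 0.19, beside 1.96% higher over all genes. Against CD NW livers, the tumors had 2 higher and 1 lower, with a median of 0.20, beside 12.3% higher and 12.8% lower over all genes. The cytosolic synthetase genes outside the list had 0 calls of 7 in WD SW livers over CD NW livers (median -0.07) and 0 of 7 in tumors over WD SW livers (median 0.05), with 0 at an unadjusted p under 0.05 in both (limma). They had 0 of 8 in tumors over CD NW livers, with 2 at an unadjusted p under 0.05 and a median of -0.11. Over all genes, 9.78% were called in WD SW livers over CD NW livers and 4.01% in tumors over WD SW livers. In tumors over CD NW livers the share was 25.1%. The listed and the unlisted genes were not tested against each other. The list was chosen with earlier results of these data known, so that the split is not independent of the calls.

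Asns, which makes asparagine and is among the best known ATF4 targets, had log2 levels of 6.45, 7.13, 6.01, 5.59 and 6.02 in tumors, 8.15, 6.46, 5.65, 5.93 and 6.29 in WD SW livers and 11.50, 11.69, 11.56, 11.09 and 10.07 in CD NW livers. The CD NW livers lay far above all samples of WD SW mice, and tumors and WD SW livers overlapped. The log2 fold change was -4.68 (SE 0.45, adjusted p = 9.28e-04) in WD SW livers over CD NW livers, and -0.25 (SE 0.44, adjusted p = 0.819) in tumors over WD SW livers. Against CD NW livers it was -4.94 in tumors (adjusted p = 2.35e-06). Of the synthetase genes whose windows hold the same letters, Tars was also lower in that comparison, Aars and Gars were higher, Iars was at 0.20 with no call, and Yars was not tested. Atf4 itself had levels of 11.29, 12.01, 11.13, 11.12 and 11.45 in tumors, 10.97, 10.99, 10.33, 11.04 and 10.92 in WD SW livers and 11.16, 11.39, 11.05, 10.85 and 11.61 in CD NW livers. Tumors and WD SW livers did not overlap in Atf4, with a log2 fold change of 0.55 (adjusted p = 0.149) that did not pass.

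Of the other genes listed as ATF4 targets, the tumors had 3 of 24 higher than WD SW livers and 0 lower, beside 1.96% higher and 2.05% lower over all genes. These were Trib3, a pseudokinase (1.93, adjusted p = 0.0117), Ddit3, the transcription factor CHOP (1.89, adjusted p = 0.0147), and Atf3, a stress-induced transcription factor (1.23, adjusted p = 0.0281). In WD SW livers over CD NW livers, Nupr1, a stress-induced nuclear protein (2.40), and Cebpg, a partner of ATF4 on DNA (0.46), were higher and Asns was lower among 21 tested, beside 6.07% higher and 3.7% lower over all genes. Set against CD NW livers, the tumors had 6 of 21 higher, led by Nupr1 at 4.39 and the hormone gene Fgf21 at 3.27, and 2 lower, Asns and the cystathionine gamma-lyase gene Cth at -1.54. Over all genes in that comparison, 12.3% were higher and 12.8% lower. The list medians were 0.11 in WD SW livers over CD NW livers, 0.16 in tumors over WD SW livers and 0.40 in tumors over CD NW livers.

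**Figure D4:**
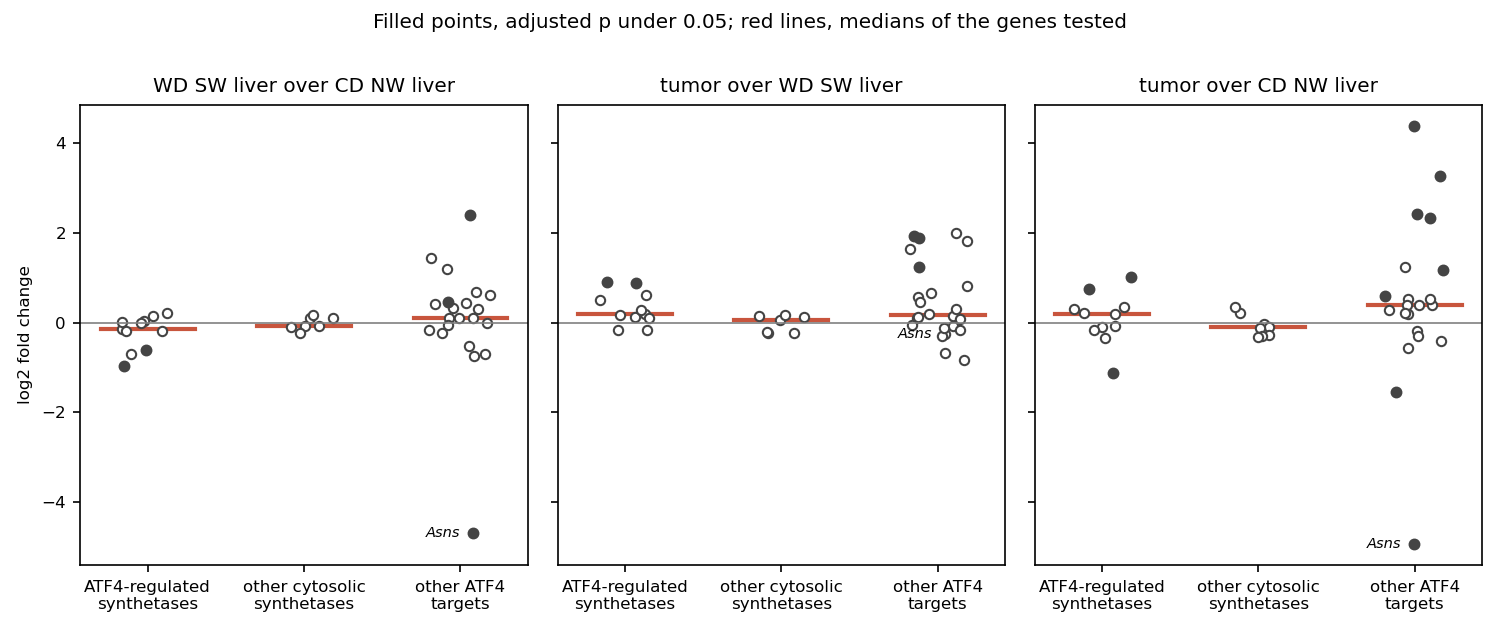
Log2 fold changes (y axis) of the genes tested in 3 lists (x axis): synthetase genes listed as ATF4-regulated, other cytosolic synthetase genes and other ATF4 targets, in the 3 comparisons. Filled points passed an adjusted p of 0.05 and red lines are medians; Asns stands at -4.68 and -4.94 against CD NW livers, far below the synthetase genes.

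Within the multisynthetase complex, 7 synthetase genes were measured (Eprs, Iars, Kars, Lars, Mars1, Qars and Rars). Of these, Mars1 alone passed in the 3 comparisons, and in 1 of them, lower in WD SW livers over CD NW livers. Over all genes, 3.7% were lower there and 9.78% were called. The share called was 4.01% in tumors over WD SW livers and 25.1% in tumors over CD NW livers. The scaffold genes had 0 of 3 called in WD SW livers over CD NW livers (2 at an unadjusted p under 0.05 in limma), with Eef1e1 at 0.45 and Aimp1 at 0.37. Tumors over WD SW livers gave 0 of 3 (0 at an unadjusted p under 0.05). Of the 3 scaffold genes, Aimp1 alone was higher in tumors over CD NW livers, at 0.50 (adjusted p = 0.0374), beside 12.3% of all genes. Of the genes that act beside the synthetases, such as the amidotransferase subunits that make mitochondrial glutaminyl-tRNA, 0 of 10 were called in WD SW livers over CD NW livers (0 at an unadjusted p under 0.05) and 0 of 10 in tumors over WD SW livers (1 at an unadjusted p under 0.05). In lists this short, counts of 0 lie near the shares over all genes. The tumors had 1 of 10 lower than CD NW livers, beside 12.8% of all genes. That gene was Dtd1, which removes wrongly charged D-amino acids from transfer RNA, at -0.51 (adjusted p = 0.0387).

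Mitochondrial translation factors were set beside the mitochondrial synthetases. In WD SW livers over CD NW livers 1 of 10 was lower, the initiation factor gene Mtif2 at -0.64 (adjusted p = 0.0247), beside 3.7% of all genes. The list median was -0.14. Tumors over WD SW livers gave 0 of 9 calls (2 at an unadjusted p under 0.05 in limma), with a median of -0.12. Over all genes, 4.01% were called in that comparison. Lower in tumors over CD NW livers were 3 of 9, Gfm2 (-0.57), a factor of ribosome recycling, Mtif2 (-0.59) and Mtif3 (-0.51), an initiation factor. Mrrf, the recycling factor gene, was higher at 0.83. Over all genes, 12.8% were lower and 12.3% higher there. The list median in that comparison was -0.38, beside -0.28 for the mitochondrial synthetases.

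Wars, the cytosolic tryptophan enzyme, is known for its induction by interferon gamma. Its log2 levels were 7.11 to 7.61 (median 7.50) in tumors, 7.16 to 8.09 (median 7.55) in WD SW livers and 7.31 to 7.76 (median 7.65) in CD NW livers, and the groups overlapped. The log2 fold change in WD SW livers over CD NW livers was -0.0027 (SE 0.17, adjusted p = 0.994). Of 10 other genes of the interferon gamma response that were tested, 5 were higher in WD SW livers and 0 lower, among them the guanylate-binding protein gene Gbp3 (2.90, adjusted p = 0.00250) and the chemokine gene Cxcl9 (3.26, adjusted p = 0.00643). Over all genes, 6.07% were higher and 3.7% lower.

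Markers of several other cell types differed between some of the groups. Of 11 macrophage markers tested, 10 were higher in WD SW livers than in CD NW livers, beside 6.07% of all genes. Of the list's 14 genes, 13 had a probe. Their summed signal, on the linear scale, was 1998 to 7075 in tumors, 4523 to 26708 in WD SW livers and 1025 to 1998 in CD NW livers, with 11, 11 to 12 and 9 to 11 of the 13 genes above background in the same groups. In tumors over WD SW livers 0 of 11 passed (7 at an unadjusted p under 0.05 in limma), with a median of -1.10. Over all genes, 4.01% were called there. Against CD NW livers, 10 of 11 were higher in tumors, with a median of 1.52, and Clec4f was at -0.62 with no call. Of 7 neutrophil genes, 2 could be tested in that comparison, S100a8 (1.91) and S100a9 (2.14), and both were higher. Over all genes, 12.3% were higher there. Of the 6 neutrophil genes with a probe, 0 to 2 were above background in CD NW livers and 2 to 5 in tumors. The tumors alone could thus have carried both genes past the filter, so that their direction is no further result. Of the endothelial markers, Stab2 was lower in tumors over WD SW livers (-1.09, adjusted p = 0.0210), with 1 of 9 called, beside 2.05% lower over all genes. Against CD NW livers, Clec4g (-2.41) and Tek (-0.99) were lower in tumors and Lyve1 (1.34) was higher, among 8 endothelial markers tested. The mean log2 level of Lyve1 was 4.67 in CD NW livers, near background, and 6.01 in tumors. The tumors alone could have carried Lyve1 past the filter, which limits its direction. The endothelial summed signal was 603 to 2468 in tumors, 982 to 5479 in WD SW livers and 2641 to 5717 in CD NW livers. Of 4 stellate and fibroblast genes tested in tumors over CD NW livers, Acta2 (-1.81) and Dcn (-2.02) were lower. Lrat (-0.38) and Des (0.008) gave no call. Sox9 (-2.75), the only 1 of 7 cholangiocyte genes that could be tested, was lower as well. Over all genes, 12.8% were lower in that comparison. In WD SW livers over CD NW livers, 0 of 5 stellate and fibroblast genes and 0 of 7 endothelial markers were called. Tumors over WD SW livers gave calls for 0 of 5 stellate and fibroblast genes and 0 of 1 cholangiocyte genes. Over all genes, 9.78% were called in the first of these comparisons and 4.01% in the second. Lymphocyte markers were near background, with 0 of 8 above it in each CD NW liver and up to 4 in a WD SW liver. Of 15 hepatocyte markers, 0 were called in WD SW livers over CD NW livers (2 at an unadjusted p under 0.05), with a median of -0.17. In tumors over WD SW livers 0 of 15 were called (4 at an unadjusted p under 0.05 in limma), with a median of -0.04. The tumors had 5 of 15 lower than CD NW livers, with a median of -0.51, beside 12.8% lower over all genes. The part of these shifts in the levels of the synthetase genes was not tested.

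Most synthetase genes gave no call. Farsa and Farsb, the subunits of the cytosolic phenylalanine enzyme, had log2 fold changes of -0.08 and -0.24 in WD SW livers over CD NW livers and 0.05 and 0.14 in tumors over WD SW livers. Kars, for lysine, was at 0.11 and -0.23 in the same comparisons, and Qars, for glutamine, at -0.07 and -0.23. In tumors over WD SW livers the 16 cytosolic genes with no call had log2 fold changes of -0.23 to 0.61, and the 13 mitochondrial genes -0.48 (Nars2) to 0.27 (Iars2, the isoleucine enzyme). Rars2, the mitochondrial arginine enzyme, was at -0.42 in tumors over CD NW livers (adjusted p = 0.0729), and with the mean of its probes it passed (adjusted p = 0.0193). Aars2 was at -0.58 in that comparison (adjusted p = 0.0601), and it passed with array weights (adjusted p = 0.0314) and in 1 fit of all 15 arrays (adjusted p = 0.04996). Without the tumor of mouse 5R, both Aars2 (adjusted p = 0.0200) and Mars1 (adjusted p = 0.0468) passed in that comparison. Hars, the cytosolic histidine enzyme, was above background on 6 arrays and was tested only in tumors over CD NW livers, at -0.29 (adjusted p = 0.270). Yars, Yars2 and Hars2 were above background on 0 of 15 arrays and Pars2, the mitochondrial proline enzyme, on 5, so that no level could be compared for these 4 genes.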

How the data were processed

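Total RNA of 5 tumors, 5 WD SW livers and 5 CD NW livers was read on Illumina mouse whole-genome arrays, 1 array per sample. The authors deposited non-normalized signal intensities for 45281 probes, without control probes or detection p-values, and a table of processed intensities with no normalization method stated. Batches of chip or scan were not tested, since the labels and methods name none. Of the probes, 34885 had 1 gene symbol, 18 had several and 10378 had none.

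Intensities were background-corrected and quantile-normalized with neqc of limma (version 3.58.1, R 4.3.3; offset 16), with 1526 probes of olfactory, vomeronasal and trace amine receptor genes in place of negative controls. A probe's detection p was the share of those probes at or above it, and a probe was kept when it stayed under 0.01 on 5 or more of the 10 arrays of a comparison. The brightest probe stood for its gene. Each comparison was fitted with lmFit and eBayes on its 10 arrays, and p-values were adjusted by Benjamini-Hochberg over all genes tested, with 0.05 as threshold. The fit was also run on simulated gene values with known changes. Normalization, detection, filter and choice of probe were not part of that simulation. The number of arrays limits the precision.

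Genes named are those past the threshold in a comparison, their counterparts for the same amino acid, and genes next to the threshold. The genes and lists were chosen with earlier results of these data known. The labels give tumor and liver the same mouse number, and the samples deviated together within mice (r = 0.189, 0.261, 0.442, 0.494 and 0.520). These numbers mark the same animal, so the fit with the mouse as a block was run as an alternative. Other alternatives changed the background correction, scaling, filter, probe rule and samples. The alternatives that tested each probe on its own and left out mouse 5R were added after seeing the data. Figures were drawn with matplotlib 3.10.9 (Python 3.11.15).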

Additional observations from a re-analysis of the deposited data

Results flagged for a closer look

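In 4 of 102 groups of 5 arrays looked at, a single array stood apart from the other 4 by more than Dixon's critical value, which sets the gap to the nearest array against the group's range. Chance gives about 1 in 20 groups. Nars had a log2 level of 8.52 in the tumor of mouse 4N, against 8.94 to 9.11 in the other tumors. Vars was at 9.09 in the WD SW liver of mouse 6L, against 8.27 to 8.48 in the other WD SW livers. Ears2, the mitochondrial glutamate enzyme, was at 7.90 in the CD NW liver of mouse 2N, against 8.22 to 8.29 in the other CD NW livers. Atf4 was at 10.33 in the WD SW liver of mouse 5N, against 10.92 to 11.04 in the other WD SW livers.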

How the results depend on the processing

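With median scaling, the WD SW liver over CD NW liver medians were 0.033 for cytosolic and -0.10 for mitochondrial genes, with 1 mitochondrial gene called. In tumors over WD SW livers 0 cytosolic genes were called. In tumors over CD NW livers 5 cytosolic genes (4 higher and 1 lower, with Sars and Vars added) and 1 mitochondrial gene were called, with medians of 0.14 and -0.044. Without a filter on dim probes, 1 mitochondrial gene was called in WD SW livers over CD NW livers (median -0.12), and the mitochondrial median in tumors over CD NW livers was -0.15. The mitochondrial median was -0.13 with array weights in WD SW livers over CD NW livers. In tumors over CD NW livers it was -0.17 with no background correction, -0.18 with the authors' processed values, and -0.19 with detection on all 10 arrays, where 1 mitochondrial gene was called and Nars2 and Sars2 were no longer tested. In 1 fit of all 15 arrays, Sars passed in tumors over WD SW livers, Aars2 passed in tumors over CD NW livers, and Vars2 did not pass in WD SW livers over CD NW livers. For the others the cause was not tested.

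Leaving out 1 array gave 1 to 3 mitochondrial genes in WD SW livers over CD NW livers (1 when CD NW liver 2L was left out). It gave 1 to 2 cytosolic genes in tumors over WD SW livers, with 1 when tumor 5N or either of the WD SW livers 4N and 4R was left out. In tumors over CD NW livers the cytosolic median was -0.15 to 0.037, above 0 when tumor 4N or CD NW liver 1R was left out, and the mitochondrial median was -0.32 to -0.18.

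With the mouse as a replicate block, 907 genes were called in tumors over WD SW livers in place of 348, with 3 cytosolic genes (Cars added) and 0 mitochondrial genes, and medians of 0.14 and -0.0022. Without both arrays of mouse 5R, 302 genes were called, Aars and Gars among them. Without the filter, Nars2 and Sars2 did not pass in WD SW livers over CD NW livers (adjusted p = 0.0543 and 0.0631). Nars2 and Sars2 were near background in part of the arrays, which limits their fold changes.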

Other observations

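The cytosolic synthetases fall into 2 structural classes by the fold of their catalytic domain. Aars and Gars, higher in tumors, and Tars, lower in WD SW livers and in tumors against CD NW livers, are class II enzymes, and Mars1 is of class I. In tumors over WD SW livers 2 of 9 class II genes were higher, and 0 of 9 class I genes were called (1 at an unadjusted p under 0.05 in limma), beside 1.96% higher over all genes. Whether the classes differed was not tested. Among the genes listed for elongation in cytosolic translation, 0 of 7 were called in WD SW livers over CD NW livers and 0 of 6 in tumors over WD SW livers (0 at an unadjusted p under 0.05 in both, limma). Over all genes, 9.78% were called in the first of these comparisons and 4.01% in the second. Of the 7 genes tested in tumors over CD NW livers, 2 were higher, Eef1b2 (0.36, adjusted p = 0.0375) and Eef1d (0.31, adjusted p = 0.0234), exchange factors of the elongation factor that carries charged transfer RNA. Eef2k, the kinase that inhibits elongation factor 2, was lower at -0.92 (limma adjusted p = 0.0224). Its mean log2 level was 4.88 in tumors and 5.80 in CD NW livers, near background. It did not pass the filter in tumors over WD SW livers. The CD NW livers could thus have carried it past the filter, which limits this fold change. Over all genes, 12.3% were higher and 12.8% lower in that comparison.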
